A study of Homo sapiens with 4 samples.

Results

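The genes described here are 10 sarcomere chaperones and small heat shock proteins, out of 39323 genes listed in every library. They are 3 chaperones of the myosin and sarcomere machinery (SMYD1, UNC45A and UNC45B) and 7 small heat shock proteins (HSPB1, HSPB2, HSPB3, HSPB6, HSPB7, HSPB8 and CRYAB). The family was taken by name, but it was selected on the measured changes as well, since SMYD1 and HSPB3 were known to stand among the largest rises after SKP2 depletion. The changes given below are therefore a description, and no test was made of them.

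RNA was measured in RD and JR1 cells, established lines of fusion-negative rhabdomyosarcoma, a tumour of cells with skeletal muscle features, both with mutated p53. Each line was infected with a lentivirus and selected with puromycin, and carried either a non-targeting hairpin (shSCR) or 1 hairpin against SKP2 (shSKP2.2, labelled shSKP2), the substrate receptor of a ubiquitin ligase. The comparison asks what SKP2 depletion does to gene expression in these lines. There was 1 poly-A selected library for each line and hairpin, 4 in all, so no value has a replicate error, no p-value is given, and an effect of SKP2 depletion cannot be told apart from other effects of this hairpin or from variation between cultures. Uninfected cells were not analysed here, and the time from infection to RNA collection is not given in the sources used here.

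Expression is given as TPM, the share of a gene among all transcripts after scaling for transcript length, which can be compared between genes. TPM keep no read number, so the depth is unknown. A change is the log2 of the ratio of TPM + 1, which shrinks the change of weakly expressed genes, and it is set beside the 12985 genes whose TPM averaged 1 or more across all libraries (below, all genes). SKP2 itself was at 92.8 TPM in RD shSCR, 7.40 in RD shSKP2, 46.5 in JR1 shSCR and 2.72 in JR1 shSKP2. Short structural RNAs took from 58.6% to 72.1% of the TPM, with the higher share under shSKP2 in each line, and the median change of all genes lay at -0.27 in RD and at -0.21 in JR1. Of 10 skeletal muscle markers, 8 were at 1 TPM or more in all 4 libraries, with MYF5 at 0 throughout and MYF6 at no more than 0.500 TPM. The summed TPM of these 10 markers was 737 and 1200.2 in RD and 1091 and 2572 in JR1, with shSCR first. Much of this sum was ACTC1, at 299.76 and 584.14 TPM in RD and at 503.51 and 1741.43 TPM in JR1. Of the 8 markers that averaged 1 TPM or more, 8 had a change above 0 in RD and 6 in JR1, against 24.6% and 30.9% of all genes. The median change of these markers was 0.35 in RD and 0.48 in JR1. None of them was at least 2-fold higher in RD, where 1.08% of all genes were. ACTC1 alone was in JR1, where 1.78% of all genes were. DES (-0.50) and CHRNG (-0.08) were lower in JR1. The summed TPM of the endothelial and of the epithelial markers stayed at no more than 0.450 in any library, and that of the blood markers at no more than 2.95, nearly all of it CD68.

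Muscle builds its contractile filaments with the help of dedicated chaperones. UNC45B holds the myosin motor domain together with HSP90 while it folds, SMYD1 is a muscle lysine methyltransferase needed for sarcomere assembly, and UNC45A is the general form of UNC45 that serves non-muscle myosins. Small heat shock proteins share the alpha-crystallin domain, form oligomers without using ATP, and hold damaged proteins until other chaperones refold them or send them to degradation. Several of them are abundant in heart and skeletal muscle, and mutations in HSPB1, HSPB3, HSPB8 and CRYAB cause neuropathy or myopathy.

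Promoter sequences from RefSeq (GRCh38.p14) matched 7 of the 10 members, with 8 entries because UNC45A has 2 annotated starts among them. The starts of HSPB7 (base 16018043) and of UNC45A (bases 90934620 and 90935285) lie inside the spans listed for these genes. The sequence before the outer end of those spans was not searched. UNC45B, HSPB2 and CRYAB had no entry. The 250 bases before each start were searched on both strands for the E-box CANNTG, bound by MYOD and other basic helix-loop-helix factors, for its versions CAGCTG and CAGGTG, for the MEF2 consensus, for the CArG box of SRF, and for GAANNTTC, the paired unit of the heat shock element. CAGCTG and CAGGTG are also counted as CANNTG. The promoters of SMYD1 and HSPB3 are shown because these genes had the largest changes, that of HSPB7 because it also held a MEF2 match, and those of HSPB8 and HSPB1 because these were the most abundant small heat shock proteins. Capitals mark every motif match, and each sequence is printed 5′ to 3′ on the strand of the gene. They lie at chr2:88067575-88067824 (SMYD1, plus strand), chr5:54455449-54455698 (HSPB3, plus), chr1:16018044-16018293 (HSPB7, minus), chr12:119178681-119178930 (HSPB8, plus) and chr7:76302423-76302672 (HSPB1, plus).
SMYD1: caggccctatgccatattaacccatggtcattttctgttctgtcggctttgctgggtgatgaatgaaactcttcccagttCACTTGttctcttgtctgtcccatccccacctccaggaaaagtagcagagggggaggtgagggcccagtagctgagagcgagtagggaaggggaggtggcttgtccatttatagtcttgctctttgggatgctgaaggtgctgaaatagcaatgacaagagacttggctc
HSPB3: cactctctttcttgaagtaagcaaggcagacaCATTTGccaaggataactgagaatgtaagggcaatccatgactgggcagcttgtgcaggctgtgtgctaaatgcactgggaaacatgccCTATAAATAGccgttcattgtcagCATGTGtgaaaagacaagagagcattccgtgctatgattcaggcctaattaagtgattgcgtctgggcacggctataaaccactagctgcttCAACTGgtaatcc
HSPB7: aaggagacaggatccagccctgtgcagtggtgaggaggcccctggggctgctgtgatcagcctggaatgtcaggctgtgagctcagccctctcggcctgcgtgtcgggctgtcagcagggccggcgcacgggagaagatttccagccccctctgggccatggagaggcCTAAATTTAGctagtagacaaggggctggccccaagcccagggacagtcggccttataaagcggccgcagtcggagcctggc
HSPB8: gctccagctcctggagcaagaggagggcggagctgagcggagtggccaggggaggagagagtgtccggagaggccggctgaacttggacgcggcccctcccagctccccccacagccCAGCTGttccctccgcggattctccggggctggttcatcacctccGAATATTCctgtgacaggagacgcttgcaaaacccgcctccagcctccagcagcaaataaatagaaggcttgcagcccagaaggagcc
HSPB1: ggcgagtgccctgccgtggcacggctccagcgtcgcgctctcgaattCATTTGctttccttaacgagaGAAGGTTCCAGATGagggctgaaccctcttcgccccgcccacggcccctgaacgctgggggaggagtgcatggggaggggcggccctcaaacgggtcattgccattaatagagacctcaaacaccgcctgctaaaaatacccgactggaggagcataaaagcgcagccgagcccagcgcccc

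The MEF2 consensus was found before HSPB3, as CTATAAATAG from 129 to 120 bases before the start, and before HSPB7, as CTAAATTTAG from 82 to 73 bases before the start. It occurs in 2.80% of the 35116 RefSeq promoters of this length. GAANNTTC was found before HSPB1, HSPB6 and HSPB8 and occurs in 5.78% of promoters. The HSPB1 match starts 182 bases before the start and is followed directly by an E-box that starts 174 bases before it. An E-box of any core was found in 7 of the 8 entries, all but HSPB7, and occurs in 61.8% of promoters. CAGCTG, in 14.0% of promoters, was found before HSPB8 and before 1 start of UNC45A. CAGGTG, in 17.5% of promoters, was found before both starts of UNC45A only among these entries, and the CArG box, in 1.16% of promoters, was found in none of the 8. SMYD1 held 1 E-box, CACTTG, and no other searched motif. These are matches of letters in a short window, with no measurement of binding.

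SMYD1, UNC45B and HSPB3 formed the group with much higher levels under shSKP2 in both lines. In the deposited TPM these were the members at least 2-fold higher, 3 of the 8 members that averaged 1 TPM or more in RD and the same 3 in JR1. Among all 12985 genes 1.08% were at least 2-fold higher in RD and 1.78% in JR1. As the choice of the family used this comparison, nothing is read from the difference. In a mixture of cells, more expressing cells and more RNA per expressing cell cannot be told apart.

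SMYD1 (chromosome 2, bases 88067825 to 88113384, GRCh38) was at 1.55 TPM in RD shSCR, 11 in RD shSKP2, 4.55 in JR1 shSCR and 38.5 in JR1 shSKP2. Both shSKP2 libraries stood above both shSCR libraries. The ratio of TPM was 7.10 in RD and 8.46 in JR1. On the log2 scale the changes were 2.23 and 2.83. Counted from the highest change down, it ranked 34 of 12985 in RD and 23 in JR1.

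HSPB3 (chromosome 5, bases 54455699 to 54456377), a small heat shock protein largely restricted to muscle, where it pairs with HSPB2, was at 1.07 TPM in RD shSCR, 10.0 in RD shSKP2, 3.93 in JR1 shSCR and 26.0 in JR1 shSKP2. Again both shSKP2 libraries were above both shSCR libraries. The ratio of TPM was 9.37 in RD and 6.62 in JR1. The log2 changes were 2.41 and 2.45, and the gene ranked 31 of 12985 in each line. Its partner HSPB2 was listed at 0 in 3 libraries and at 0.130 TPM in JR1 shSKP2.

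UNC45B (chromosome 17, bases 35147793 to 35189345) was at 0.480 TPM in RD shSCR, 3.86 in RD shSKP2, 4.05 in JR1 shSCR and 20.0 in JR1 shSKP2. Here both JR1 libraries stood above both RD libraries, and RD with shSKP2 only came near the level of JR1 with shSCR. In RD the log2 change was 1.72, and in JR1 it was 2.05, which ranked 46 and 49 of 12985, and the ratio of TPM was 8.04 and 4.93. The ratio was larger in RD while the log2 of TPM + 1 was larger in JR1, because the RD control lay under 1 TPM. With 0.1 TPM added in place of 1, RD gave 2.77 and JR1 gave 2.27.

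UNC45A (chromosome 15, bases 90930180 to 90954093) moved the other way. It was at 32.0 TPM in RD shSCR, 22.7 in RD shSKP2, 30.6 in JR1 shSCR and 18.6 in JR1 shSKP2. Its levels in the 2 control libraries lay close together, and both shSKP2 libraries were lower. In RD the log2 change was -0.48, and in JR1 it was -0.69, so it did not reach 2-fold. Centred on the median of all genes, these values were -0.21 and -0.48. After short structural RNA genes were removed and the TPM rescaled, the changes were -0.07 and -0.45.

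The balance of the 2 UNC45 forms, which does not depend on the scaling of a library, therefore moved towards the muscle form. UNC45B was present at 0.0150 transcripts per UNC45A transcript in RD shSCR and 0.17 in RD shSKP2. In JR1 the value was 0.132 in shSCR and 1.08 in shSKP2, so that the muscle form was about as abundant as the general form in that library alone. The sum of both forms was 32.5 and 26.6 TPM in RD and 34.6 and 38.5 TPM in JR1, with shSCR first. The overlapping genes HDDC3 and RCCD1-AS1 share part of the UNC45A span, and HDDC3 was at no more than 4.03 TPM in any library.

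**Figure D1:**
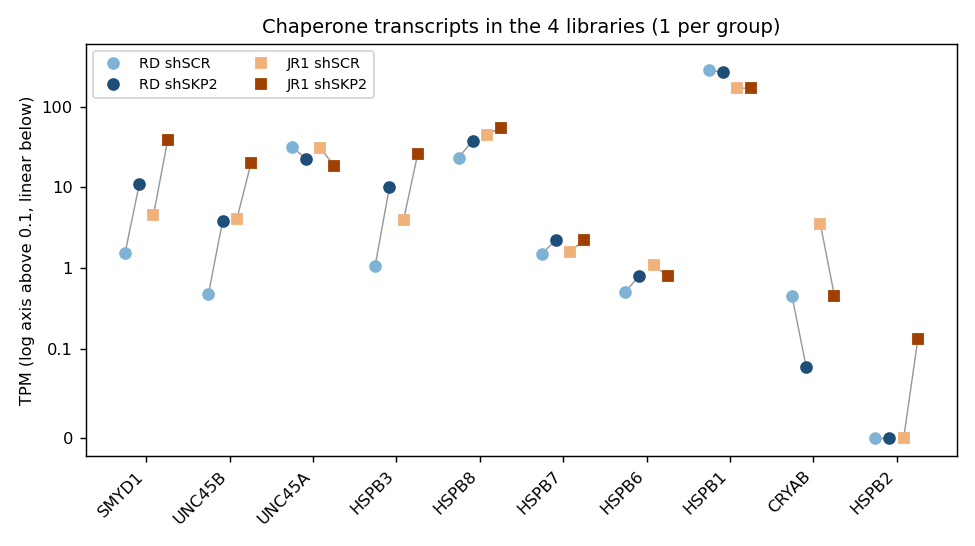
TPM (y axis, logarithmic above 0.1 and linear below) of the 10 members (x axis) in the 4 libraries, 1 point per library, with a grey line from shSCR to shSKP2 in each line. SMYD1, UNC45B and HSPB3 are higher with shSKP2 in both lines, HSPB1 lies between 169 and 285 TPM in every library, and CRYAB is lower with shSKP2 in both lines.

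The remaining small heat shock proteins differed in level by orders of magnitude and had log2 changes under 1 in size on TPM + 1, apart from CRYAB in JR1. By the ratio of TPM, CRYAB was more than 2-fold lower in both lines. HSPB1 (Hsp27, chromosome 7, bases 76302673 to 76304292), an actin-binding stress protein of most tissues, was the most abundant member in all 4 libraries. It was at 285 TPM in RD shSCR, 269 in RD shSKP2, 171 in JR1 shSCR and 169 in JR1 shSKP2. RD stood above JR1 under both hairpins, and the hairpins differed little within a line. In RD the log2 change was -0.08, and in JR1 it was -0.01. These signs turned with the scaling, to 0.19 and 0.20 relative to the median of all genes and to 0.34 and 0.25 after short structural RNA genes were removed.

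HSPB8 (Hsp22, chromosome 12, bases 119178931 to 119194746) works with the cochaperone BAG3, which links it to HSP70 and to the autophagic clearance of damaged filament proteins. It was at 23.4 TPM in RD shSCR, 37.9 in RD shSKP2, 44.9 in JR1 shSCR and 55.2 in JR1 shSKP2. Both JR1 libraries stood above both RD libraries, and shSKP2 was higher than shSCR within each line. In RD the log2 change was 0.67, and in JR1 it was 0.29. Without short structural RNA genes the values were 1.10 and 0.56, so HSPB8 in RD passed 2-fold under that scaling. BAG3, named here as its partner and chosen after its values were seen, was at 42.2 TPM in RD shSCR, 25.5 in RD shSKP2, 51.1 in JR1 shSCR and 28.8 in JR1 shSKP2. The uncharacterised gene LOC107984440 overlaps HSPB8 and was at no more than 0.850 TPM. HSPB8 per BAG3 transcript was 0.555 in RD shSCR and 1.49 in RD shSKP2, and 0.880 and 1.92 in JR1.

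HSPB7 (cvHSP, chromosome 1, bases 16014029 to 16019594), a heart and muscle form, was low in every library. It was at 1.5 TPM in RD shSCR, 2.25 in RD shSKP2, 1.6 in JR1 shSCR and 2.25 in JR1 shSKP2. The log2 changes were 0.38 and 0.32. The lines hardly differed in this gene under either hairpin.

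HSPB6 (Hsp20, chromosome 19, bases 35754566 to 35757029), known for its role in smooth and heart muscle, had a mean of 0.795 TPM and was not among the 8 members above the minimum. It was at 0.510 TPM in RD shSCR, 0.800 in RD shSKP2, 1.08 in JR1 shSCR and 0.790 in JR1 shSKP2. The levels came together under shSKP2, as the RD value was higher and the JR1 value lower than in the control. In RD the log2 change was 0.25, and in JR1 it was -0.22.

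CRYAB (alpha-B crystallin, chromosome 11, bases 111908564 to 111923740), a chaperone of desmin and titin that is abundant in differentiated muscle, was lower under shSKP2. It was at 0.450 TPM in RD shSCR, 0.0800 in RD shSKP2, 3.55 in JR1 shSCR and 0.450 in JR1 shSKP2. The only library above 1 TPM was the JR1 control. In RD the log2 change was -0.43, and in JR1 it was -1.65. The ratio of TPM was 0.178 and 0.127. CRYAB in JR1 was the 1 member of 8 at least 2-fold lower there, against none of 8 in RD, where all genes gave 9.05% in JR1 and 7.37% in RD. As it reached the minimum only through the JR1 control, where it was high, a lower value in JR1 shSKP2 was built into its being counted, and nothing is read from this count. With 0.1 TPM added in place of 1, it was at -1.61 in RD and -2.73 in JR1.

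The values of CRYAB and HSPB2 share a locus. The CRYAB span in the files covers HSPB2 (bases 111912734 to 111914093) and overlaps C11orf52 and the read-through gene HSPB2-C11orf52. C11orf52 was at 0.710 and 0.560 TPM in RD and at 0.830 and 0.410 TPM in JR1, with shSCR first, and the read-through gene at no more than 0.0900 TPM. The libraries were directional, but whether strand was used in the estimate is not given in the sources used here. The part of these neighbours in the CRYAB values was not tested.

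**Figure D2:**
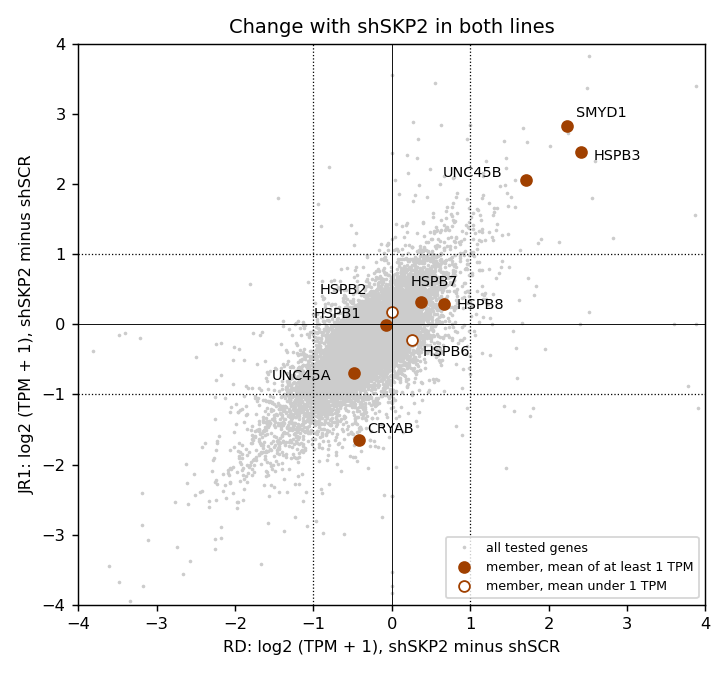
Log2 change with shSKP2 in RD (x axis) and JR1 (y axis), each on TPM + 1, for all 12985 tested genes (grey) and the 10 members (brown, hollow where the mean is under 1 TPM). Dotted lines mark 2-fold, 47 genes lie outside the axes, and SMYD1, HSPB3 and UNC45B stand in the upper right while CRYAB is at least 2-fold lower in JR1.

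Over the 8 members above the minimum, 5 had a change above 0 in RD and 5 in JR1, against 24.6% and 30.9% of all genes. The members above 0 were SMYD1, UNC45B, HSPB3, HSPB7 and HSPB8 in each line. The median of the 8 changes was 0.52 in RD and 0.31 in JR1, beside -0.27 and -0.21 for all genes. As the choice of the family used these changes, nothing is read from these differences or from the counts that follow. After short structural RNA genes were removed, 9 members passed the minimum. 4 of them were then at least 2-fold higher in RD, with HSPB8 the added one, and 3 in JR1, where 4.39% and 4.90% of 15217 genes were. On that scaling 3.45% of all genes in RD and 7.49% in JR1 were at least 2-fold lower, so higher genes made up 56.0% of those past 2-fold in RD and 39.6% in JR1, against 12.8% and 16.4% as deposited.

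**Figure D3:**
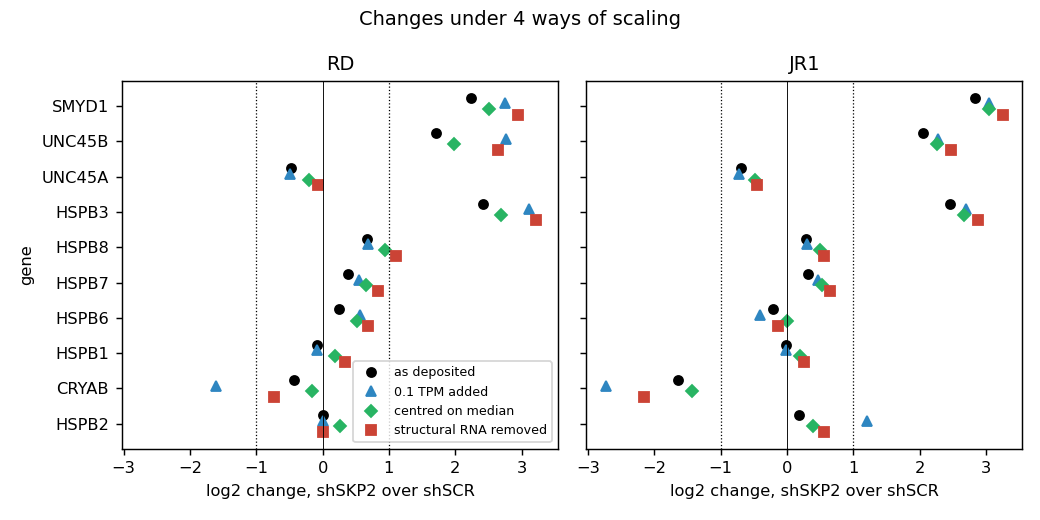
Log2 change with shSKP2 (x axis) of the 10 members (y axis) in RD (left) and JR1 (right), with 1 marker for each of 4 ways of scaling. SMYD1, UNC45B and HSPB3 lie beyond the dotted 2-fold line in both lines under all 4, HSPB1 crosses 0, and CRYAB in RD passes 2-fold where 0.1 TPM is added in place of 1.

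Within the small heat shock protein pool, shares differed between the hairpins. Unlike the sum, these shares do not depend on how a library is scaled. The 7 members summed to 312 TPM in RD shSCR, 320 in RD shSKP2, 226 in JR1 shSCR and 254 in JR1 shSKP2. HSPB1 made up 91.3% of this sum in RD shSCR and 84.1% in RD shSKP2, and 75.6% and 66.6% in JR1. HSPB8 went from 7.52% to 11.8% in RD and from 19.9% to 21.7% in JR1. HSPB3 went from 0.343% to 3.13% in RD and from 1.74% to 10.2% in JR1. In JR1 shSKP2 the order of the members by level was HSPB1, HSPB8, SMYD1, HSPB3, UNC45B and UNC45A, and in RD shSCR it was HSPB1, UNC45A, HSPB8, SMYD1, HSPB7 and HSPB3. With 1 library each, no spread is known for these orders.

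Levels of several members also differed between the shSCR libraries of the lines. With 1 library per line and hairpin, and a family chosen with these data known, nothing is read from the counts here or under shSKP2. In the shSCR libraries 4 of the 8 members were at least 2-fold higher in JR1 than in RD, where 3.44% of all genes were, and none was at least 2-fold lower, where 6.5% of all genes were. These 4 were UNC45B, CRYAB, HSPB3 and SMYD1, with log2 differences of 1.77, 1.65, 1.25 and 1.12. HSPB8 followed at 0.91, and HSPB1 was lower in JR1 at -0.74. UNC45A and HSPB7 lay at -0.06 and 0.06, beside a median of -0.23 over all genes. CRYAB reached the minimum only through the JR1 control, and with a minimum of 5 TPM the count was 3. It was 5 of 8 after centring (5.06% of all genes), with HSPB8 added at 1.14. With short structural RNAs removed it was 5 of 9 (6.99% of 15217 genes), with HSPB8 at 1.23.

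Under shSKP2, 3 of the 8 members were at least 2-fold higher in JR1 on TPM + 1, UNC45B (2.11), SMYD1 (1.72) and HSPB3 (1.29), beside 2.7% of all genes. None of the 8 was at least 2-fold lower, beside 5.39%. HSPB8 (0.53) and CRYAB (0.43) were also higher in JR1, and HSPB1 (-0.67) was lower, as in the controls. CRYAB passed 2-fold with 0.1 TPM added (1.61) and with short structural RNAs removed (1.05). The count was then 4 of 8 (3.74% of all genes) and 4 of 9 (4.95% of 15217 genes). This comparison and the one between the controls are tied to the changes within the lines, since the same 4 libraries give all of them. The change in JR1 minus that in RD was 0.60 for SMYD1, 0.34 for UNC45B, 0.04 for HSPB3, -0.38 for HSPB8 and -1.22 for CRYAB. For UNC45B and HSPB3 the sign of this difference turned with 0.1 TPM added, to -0.50 and -0.42, so the data do not order the lines by the size of these changes.

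The genes nearest in pattern to the 3 members that were past 2-fold in both lines were found by the Euclidean distance between log2 (TPM + 1) values, centred on the gene's mean, over 4 libraries. With so few libraries this is a description of likeness only. For SMYD1 they were C1orf105, the Z-disc gene LDB3 and HSPB3, at distances of 0.25, 0.26 and 0.33. For HSPB3 they were C1orf105, LDB3 and SMYD1, at 0.24, 0.30 and 0.33. For UNC45B they were FBXO32, a muscle ubiquitin ligase, the Z-disc gene MYOZ2 and ARPP21, at 0.29, 0.36 and 0.44. LDB3, for example, was at 0.680 and 5.80 TPM in RD and at 2.58 and 20.0 TPM in JR1.

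The myosins that these chaperones fold were also measured. Of 10 sarcomeric heavy chain genes, 3 averaged 1 TPM or more, and 1 of these was at least 2-fold higher in RD (1.08% of all genes) and 3 in JR1 (1.78%). MYH8 reached the minimum only through the shSKP2 libraries, and MYH2, named after its values were seen, only through JR1 shSKP2, so nothing is read from these counts. MYH8, the perinatal form, was at 0.660 and 3.56 TPM in RD and at 0.380 and 6.13 TPM in JR1, with shSCR first. MYH3, the embryonic form, was at 1.97 and 1.71 TPM in RD and at 8.39 and 19.9 TPM in JR1. The 10 genes summed to 3.65 and 6.90 TPM in RD and to 10.8 and 32.9 TPM in JR1, with shSCR first. UNC45B per sarcomeric heavy chain transcript was 0.132 and 0.559 in RD and 0.374 and 0.606 in JR1.

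The 3 non-muscle heavy chains, served by UNC45A, had medians of -0.65 (RD) and -0.43 (JR1) on the log2 scale. On TPM + 1 none of 3 was at least 2-fold lower in RD (7.37% of all genes) and 1 was in JR1 (9.05%). MYH14 had the lowest value in each line, -0.82 and -1.24, and MYH10 the highest, -0.62 and -0.15, the latter turning to 0.06 after centring. In RD, MYH14 passed 2-fold by the ratio of TPM (0.488) and with 0.1 TPM added (-1.01). Relative to the median of all genes the list medians were -0.38 and -0.21.

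Filament and Z-disc genes, whose products are clients of small heat shock proteins, were mixed. Of 8 above the minimum, 1 was at least 2-fold higher in RD (1.08% of all genes) and 3 in JR1 (1.78%). None was at least 2-fold lower, beside 7.37% of all genes in RD and 9.05% in JR1. After centring, and likewise with short structural RNAs removed, RD had 3 higher genes and JR1 had 4. All genes gave 2.09% and 2.99% after centring, and 4.39% and 4.90% of 15217 with the removal. The median change was 0.20 in RD and 0.50 in JR1. TTN, the titin gene, was highest, at 0.880 and 10.4 TPM in RD and 2.59 and 17.1 TPM in JR1. VIM, the intermediate filament gene of mesenchymal cells, was lowest, with changes of -0.50 and -0.61.

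Few of the general chaperones were past 2-fold, and so were few of all genes. Of all genes, 1.08% in RD and 1.78% in JR1 were at least 2-fold higher, and 7.37% and 9.05% were lower. Nothing is read from the counts of the HSP90, HSP70 and CCT lists. None of 9 genes of the HSP90 machine was at least 2-fold higher in either line, and 1 was at least 2-fold lower in JR1, AHSA1, the activator of the HSP90 ATPase, with changes of -0.70 in RD and -1.12 in JR1. It was not past 2-fold in JR1 after centring (-0.90) or with short structural RNAs removed (-0.87). The median of this list was -0.27 in RD and -0.25 in JR1, close to that of all genes, and it was 0.15 and 0.01 after short structural RNA genes were removed. PPID had the highest value, -0.02 in RD and 0.12 in JR1.

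Of 17 genes of the HSP70 machine and its autophagy partners, none passed 2-fold in RD. In JR1 1 was higher (1.78% of all genes were) and 1 was lower (9.05% were). SYNPO2, an actin-bound partner of BAG3 in muscle, was the higher one, at 15.5 and 26.5 TPM in RD and 15.1 and 33.8 TPM in JR1. DNAJB1, a stress-induced partner of HSP70, was the lower one, at 49.5 and 25.9 TPM in RD and 52.9 and 23.6 TPM in JR1, but not after centring (-0.91) or with short structural RNAs removed (-0.89). SYNPO2 was past 2-fold in RD as well under both of these scalings, at 1.18 with the removal. With 0.1 TPM added 2 genes were lower in JR1, DNAJB1 and HSPH1 (-1.04), the second named after its values were seen. The list median was -0.28 in RD and -0.44 in JR1. It was 0.13 and -0.19 with short structural RNAs removed. None of 8 subunits of the CCT chaperonin, which folds actin, passed 2-fold, with a median of -0.18 and -0.22 and a range from CCT6A (-0.74 and -0.89) to CCT4 (-0.13 and 0.01). With short structural RNAs removed the CCT median was above 0, at 0.24 and 0.04.

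On TPM + 1 no gene listed here as a relative of the members was past 2-fold. Few of all genes were, with 1.08% higher and 7.37% lower in RD and 1.78% and 9.05% in JR1. SMYD2, SMYD3, SMYD4, SMYD5 and NACA, whose muscle form binds SMYD1, had medians of -0.53 (RD) and -0.38 (JR1) on the log2 scale. SMYD2 was lowest in this group, with -0.98 and -0.82, and in RD it passed 2-fold by the ratio of TPM (0.466) and with 0.1 TPM added (-1.09). Of 4 other genes grouped here with the small heat shock proteins, HSPB11 alone passed the minimum, with -0.47 in RD and -0.15 in JR1. HSPB9 was at no more than 1.06 TPM, and CRYAA and ODF1 were listed at 0 in every library. Whether each of them holds the alpha-crystallin domain was not checked.

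Transcription factors of muscle genes and heat shock factors were described last, and their action on the members was not tested. MYOG was at 31.6 and 58.4 TPM in RD and at 54.0 and 107 TPM in JR1. MEF2C was at 0.980 and 2.05 TPM in RD and at 1.76 and 18.7 TPM in JR1, log2 changes of 0.62 and 2.84. MYOD1 had log2 changes of 0.11 and 0.38. HSF1, the main factor of the heat shock response, was at -0.28 in RD and -0.05 in JR1, and at 0.13 and 0.21 with short structural RNAs removed. HSF4 was at -0.79 and -0.71. Of the 9 factors listed, none was past 2-fold in RD on TPM + 1. In JR1 2 were at least 2-fold higher, MEF2C and MEF2A, the second of which was named after its values were seen. Of all genes, 1.08% were at least 2-fold higher in RD and 1.78% in JR1. These counts moved with the scaling. After centring, 1 factor was at least 2-fold higher in RD (2.09% of all genes) and 3 in JR1 (2.99%). With short structural RNAs removed it was 2 in RD and 3 in JR1, beside 4.39% and 4.90% of 15217 genes. Those in RD were MYOG and MEF2C (1.18). By the ratio of TPM, MEF2C (2.09) and HSF4 (0.442) passed 2-fold in RD, and HSF4 did in JR1 (0.465). With 0.1 TPM added HSF4 was at least 2-fold lower in both lines, at -1.12 and -1.05.

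**Figure D4:**
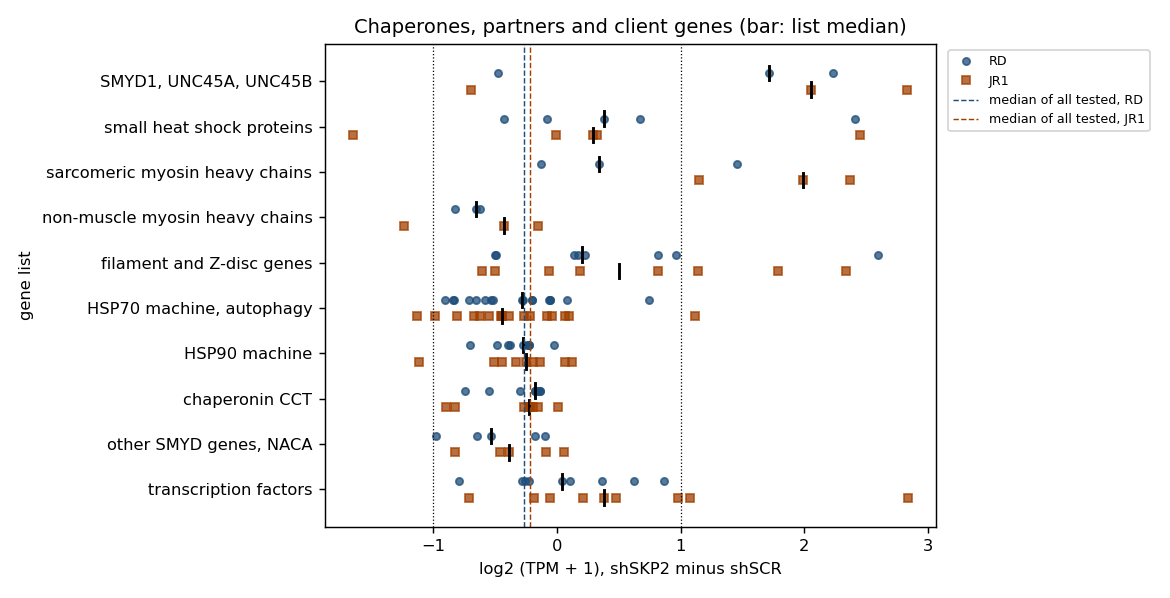
Log2 change with shSKP2 (x axis) of the genes of each list that averaged 1 TPM or more (y axis), for RD (circles) and JR1 (squares), with a black bar at the list median and dashed lines at the medians of all tested genes. The HSP90, HSP70 and CCT lists lie around the dashed lines. SMYD1, UNC45B and HSPB3 in both lines, and in JR1 the 3 sarcomeric myosin heavy chains plotted, lie to the right of 2-fold. Of these heavy chains, MYH2 and MYH8 reached the minimum only through shSKP2 libraries.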

How the data were processed

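RNA of both lines, RD and JR1, carrying either hairpin was extracted with a column kit and made into directional poly-A libraries, which were read as pairs of 150 bases. The authors aligned reads to GRCh38 with STAR 2.7.9a and deposited gene TPM from RSEM 1.3.2, with 2 decimals. The TPM sum to 1e+06 in each library and give no depth, so no counting error can be stated. Samples were grouped by their titles, 1 library per group, and no test was made. Log2 ratios of TPM + 1 were computed for genes that averaged 1 TPM or more, with a limit of 2-fold. The alternatives were 0.1 TPM added, centring on the median, removal of 2984 short structural RNA genes by symbol with rescaling, no minimum, a minimum of 5 TPM and a 1.5-fold limit. The members and the gene lists were chosen with earlier results of these data known.

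The named genes are the members, SKP2, the highest and lowest gene of each list in a line, list genes past 2-fold in both lines, MYOD1, MYOG, MEF2C, HSF1 and the 3 genes nearest in pattern to each member past 2-fold in both lines. Others are said to be chosen after their values were seen, or are named as markers, overlapping genes or genes of a list given at 0. Promoters are from RefSeq. Protein sequences were not analysed here. The scripts were tested on simulated data. Python 3.11.15, numpy 2.4.6, pandas 2.3.3 and matplotlib 3.10.9 were used.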

Additional observations from a re-analysis of the deposited data

Results flagged for a closer look

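Of the genes covered by the rule for named genes, those whose log2 change with shSKP2 had opposite signs in RD and JR1 are given here. Other genes of the lists had opposite signs too, such as DES, chosen after its values were seen, at 0.14 in RD and -0.50 in JR1. With 1 library per group, none of these differences was tested. HSPB6 was at 0.25 in RD and -0.22 in JR1, which differ by -0.47 (JR1 minus RD). Its mean was 0.795 TPM, under the minimum. Centred on the median, the values were 0.52 and -0.0025, so that almost no change was left in JR1. With the short structural RNAs removed, they were 0.69 and -0.14, still of opposite sign. MYH3 was at -0.13 in RD and 1.15 in JR1, which differ by 1.29, and after that removal both were above 0, at 0.18 and 1.47. NACA (difference 0.23), PPID (0.14) and CCT4 (0.14) were below 0 in RD and above 0 in JR1 as deposited. Centred on the median, or after that removal, they were above 0 in both lines.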

How the results depend on the processing

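SMYD1, UNC45B and HSPB3 remained at least 2-fold higher under shSKP2 in both lines with 0.1 TPM added, after centring on the median and with short structural RNAs removed. The number of members at least 2-fold lower was 1 in place of 0 in RD with 0.1 TPM added (CRYAB). In JR1 it was 0 in place of 1 with a minimum mean of 5 TPM, which leaves out CRYAB, and 2 with a limit of 1.5-fold, which adds UNC45A. With that limit 1 member was lower in JR1 than in RD in the shSCR libraries and 1 in the shSKP2 libraries (HSPB1 in both), in place of 0. Of the 20 changes of members with shSKP2, 2 turned sign after centring and 2 after the removal, those of HSPB1 in both lines, and 0 with 0.1 TPM added. No result past 2-fold turned sign under these 3 scalings. Each change was computed within a line, and no fit over both lines together was run. Leaving out a library was not run, as it would remove a group. TPM keep no depth, so values under 1 TPM, among them those of CRYAB, HSPB6 and HSPB2, have an unknown precision.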

Other observations

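Of the HSP70 and HSP90 lists, 5 genes picked after their values were seen had negative changes in both lines. A negative sign is common here, since 24.6% of all genes in RD and 30.9% in JR1 were above 0. In the HSP70 list 2 of 17 genes were above 0 in RD and 3 in JR1. In the HSP90 list it was 0 of 9 and 2. DNAJB1, HSPH1, BAG3, AHSA1 and HSPA1B had log2 changes of -0.91, -0.84, -0.71, -0.70 and -0.65 in RD and of -1.13, -0.98, -0.80, -1.12 and -0.54 in JR1, beside medians of -0.27 and -0.21 over all genes. On TPM + 1 none of the 5 was past 2-fold in RD, and in JR1 DNAJB1 and AHSA1 were. In JR1, HSPH1 also passed 2-fold by the ratio of TPM (0.484) and with 0.1 TPM added (-1.04). With short structural RNAs removed, they were still below 0 in both lines, from -0.51 for DNAJB1 to -0.24 for HSPA1B in RD and from -0.89 for DNAJB1 to -0.29 for HSPA1B in JR1. HSPH1, for example, was at 22.7 and 12.2 TPM in RD and at 21.9 and 10.6 TPM in JR1. HSPA1B has a near-identical copy, HSPA1A, listed at no more than 0.17 TPM, and how reads were split between the copies is not known. Other genes of these lists were above 0 on that scaling, such as HSPA8 at 0.36 and 0.19 and HSP90AA1 at 0.18 and 0.13. Among the members, HSPB1 was at 0.34 and 0.25 and HSPB8 at 1.10 and 0.56 on that scaling.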
